A study of Homo sapiens with 12 samples.

Results

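The 6 genes described here, HIST1H1C, HIST1H4C, HIST1H2BD, HIST1H2BK, HIST1H2AC and HIST2H2BE, encode histones of the replication-dependent class. They were chosen by symbol, with their values in these libraries already known, from 70 replication histone genes that were listed and that the count table holds among 25369 gene symbols. The samples were tumours of MDA-MB-231, an established human line of triple-negative breast cancer, grown in the mammary fat pad of mice from cells in 50 µl of Matrigel, with 10 mice per group. Injections into the peritoneum were given on 5 days a week once tumours measured 100 mm3. The combination group was given SB202190, which blocks p38 MAP kinases, together with tazemetostat (EPZ-6438), which blocks EZH2, the methyltransferase of lysine 27 on histone H3; the labels state no separate doses for it. The p38i group was given SB202190 alone at 1 mg/kg/day. In the EZH2i group the EZH2 inhibitor was given alone at 10 mg/kg/day, under a code that the labels spell EPZ-6428 in that place. The vehicle group received 4% DMSO, 30% PEG300 and 5% Tween 80. Each group had 3 libraries, so there were 12 in all. The mouse strain, the animals' age and the length of treatment are not given in the sources used here.

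Replication histone genes have no introns and are transcribed mainly in S phase, when new DNA has to be packed into nucleosomes. Their messages usually end in a conserved stem-loop, bound by the protein SLBP and cut with the help of the U7 small nuclear ribonucleoprotein, instead of in a poly(A) tail. Some of these genes also have a poly(A) signal further downstream, and transcripts that end there carry a tail and can be captured with other messenger RNAs. Counts per gene do not show where a transcript ended, so the description of these 6 as polyadenylated could not be checked in the table.

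Annotated transcripts were searched for the stem-loop, which is shown because it separates the usual ending from a longer one. In GENCODE release 29, 32 of the 70 replication histone genes had a transcript that held the 16-base element, and 23 of them had more than 100 bases after it. HIST1H2AC and HIST2H2BE were among the 23. The stem is in capitals and the loop in lower case, 5′ to 3′.
HIST1H2AC: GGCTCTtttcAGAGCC
HIST2H2BE: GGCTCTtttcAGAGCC
HIST1H2BD: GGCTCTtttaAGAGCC
The longer of the HIST1H2AC transcripts that hold it continued for 1128 bases past the element, and the HIST2H2BE transcript for 1729 bases; another HIST1H2AC transcript held no match. One HIST1H2BD transcript of 496 bases ended 39 bases after the element, and another, of 789 bases, held no match. The listed transcripts of HIST1H1C (642 bases), HIST1H4C (435 bases) and HIST1H2BK (381 bases) held no match, which says only that these letters are not in the annotated transcript.

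The promoters of 5 of the 6 genes were in the RefSeq table (GRCh38.p14), and 160 bases upstream of each annotated start are shown because they set out which control elements the genes share. Both strands were searched for the octamer ATTTGCAT, known from H2B genes as a binding site of OCT1, for CCAAT, for TATAAA and for AAACACA, the H1 box of linker histone genes. Matches are in capitals, 5′ to 3′ on the strand of the gene. The pieces are chr6:26056471-26056630 on the minus strand for HIST1H1C, chr6:26157961-26158120 on the plus strand for HIST1H2BD, chr6:27146859-27147018 on the minus strand for HIST1H2BK, chr6:26124012-26124171 on the plus strand for HIST1H2AC and chr1:149886683-149886842 on the minus strand for HIST2H2BE.
HIST1H1C: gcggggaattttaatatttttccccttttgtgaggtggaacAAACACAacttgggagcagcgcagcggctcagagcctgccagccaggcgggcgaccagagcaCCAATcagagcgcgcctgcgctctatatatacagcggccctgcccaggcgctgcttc
HIST1H2BD: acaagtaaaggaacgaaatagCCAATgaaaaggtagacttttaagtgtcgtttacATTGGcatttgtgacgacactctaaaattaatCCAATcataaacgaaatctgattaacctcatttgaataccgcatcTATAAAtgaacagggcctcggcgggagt
HIST1H2BK: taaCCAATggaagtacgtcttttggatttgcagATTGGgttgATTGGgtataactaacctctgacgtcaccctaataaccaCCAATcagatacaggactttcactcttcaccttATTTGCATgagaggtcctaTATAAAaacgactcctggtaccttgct
HIST1H2AC: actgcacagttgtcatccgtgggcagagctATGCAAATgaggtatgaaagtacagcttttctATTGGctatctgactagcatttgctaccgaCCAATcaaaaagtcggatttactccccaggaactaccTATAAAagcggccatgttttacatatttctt
HIST2H2BE: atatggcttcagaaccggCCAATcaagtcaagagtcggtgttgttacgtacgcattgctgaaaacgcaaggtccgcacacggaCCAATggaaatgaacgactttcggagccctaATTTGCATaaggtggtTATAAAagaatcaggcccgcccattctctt
CCAAT or its reverse complement was found in 5 of these 5 promoters, against 25.3% of 27305 promoters of the same length and 83.3% of the 60 replication histone promoters in the table. TATAAA was found in 4 of the 5, the exception being HIST1H1C, against 7.38% of all promoters and 60% of the histone promoters. The octamer began at position -46 from the start in both HIST1H2BK and HIST2H2BE, and lay reversed further upstream in HIST1H2AC, from position -130 to -123. It occurred in 1.04% of all promoters and in 25% of the histone promoters. The H1 box was found in HIST1H1C, at position -119, against 3.01% of all promoters and 8.33% of the histone promoters. These are matches of letters and not measured binding sites. HIST1H4C, named H4C3 in RefSeq, lies on the same chromosome as the HIST1 genes.

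**Figure D1:**
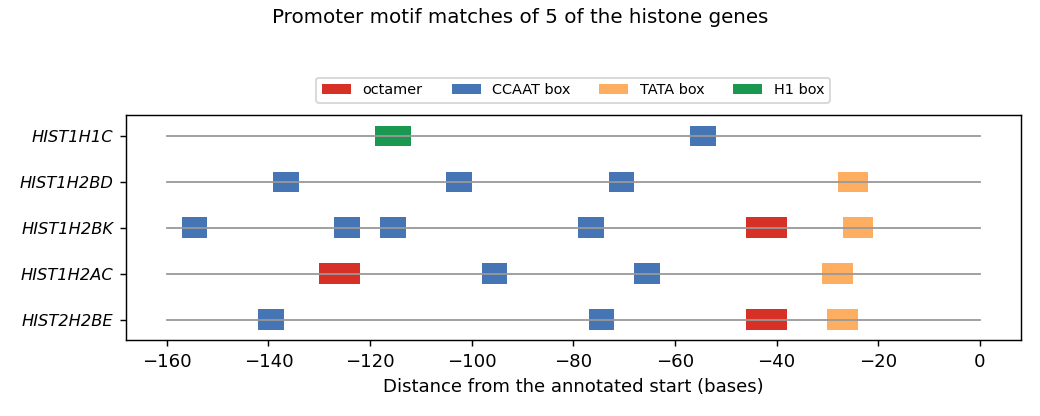
Motif matches in the 160 bases before the annotated start of 5 of the histone genes; the horizontal axis is the distance from the start in bases, each row is 1 gene and each coloured block is 1 match on either strand. The octamer begins at the same position, -46, in HIST1H2BK and HIST2H2BE, which are both H2B genes.

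Library totals lay between 2208771 and 4467942 counts, and 16389 to 17549 genes had at least 1 count. VIM, a mesenchymal marker of this line, was at a mean of 5305 CPM, whereas ESR1 (5.86 CPM), PGR (4.45 CPM) and ERBB2 (23 CPM), which define the triple-negative type by their lack, were detected at low means. The epithelial markers CDH1 and EPCAM, known to be low or absent in this line, differed widely among libraries. CDH1 ran from 0.941 to 42.2 CPM in combination, 0.552 to 33.4 CPM in p38i, 0.249 to 4.47 CPM in EZH2i and 4.03 to 55.4 CPM in vehicle libraries, and EPCAM from 27.6 to 65.1 CPM in combination, 32.3 to 54.9 CPM in p38i, 24 to 35 CPM in EZH2i and 35.8 to 101 CPM in vehicle libraries. The part of this variation in the histone results was not tested. CPM, or counts scaled to a common library size, uses edgeR's scaling throughout. A pair of the p38i libraries could not be tied to a single tumour and are called col5 and col6. Transcripts of 12 skeletal muscle marker genes, all 12 highest in col6, made up 0.0759% of the counts of that library, against 0.000146% to 0.00294% in the other 11. Values without col6 are given for some of the 6 histone genes beside the comparisons that use p38i libraries, and not for other genes. With col6 left out, 2 genes in all were called in p38i against vehicle, against 221 with it. Leaving out p38i 3-3 or col5 instead gave 2 and 7 genes. Leaving out vehicle 1-1, 1-3 or 2-1 gave 32, 3 and 568. The part of the muscle transcripts in the results was not tested. Vehicle 1-1 and 1-3 had the lowest summed share of counts in S phase genes among the 12 libraries, 0.0821% and 0.1%; by the median log2 CPM of these genes vehicle 1-1 was the lowest, at 4.63, and vehicle 1-3, at 5.12, lay above vehicle 2-1, at 5.01.

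The replication histone counts were concentrated in a few genes. The 6 genes held 96.6% of all counts assigned to the 70, with a range of 95% to 98% over the libraries, and HIST1H4C alone held 65.3% to 80.2% in each. Of the 70, 18 were at 0 in all 12 libraries, and 31 had counts but fewer than 10 in every library. In all, 13 passed edgeR's filter on low counts, the 6 genes among them. These shares may also depend on transcript length and on the library kit, which the labels do not settle. HIST3H2A, an H2A gene that was not chosen, averaged 18.9 CPM over the libraries. The near-identical pairs HIST2H4A and HIST2H4B, and HIST2H2AA3 and HIST2H2AA4, were listed at 0 throughout, and so was H3F3A. How reads that match several genes were counted is not given in the sources used here, so the split of reads among histone genes of similar sequence is uncertain. As a share of all counts, the 6 genes took 0.134% to 0.235% in the combination libraries, 0.203% to 0.372% in p38i, 0.15% to 0.177% in EZH2i and 0.099% to 0.133% in vehicle libraries. In these bulk tumours, a change in the number of cells in S phase and a change in the RNA per cell cannot be told apart.

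HIST1H1C encodes H1.2, a linker histone that binds the DNA between nucleosomes. Its level was 138, 79.7 and 92.9 CPM in the combination libraries 8-1, 9-1 and 9-2. It was 151, 147 and 209.9 CPM in the p38i libraries 3-3, col5 and col6, and 109.8, 150.4 and 137 CPM in the EZH2i libraries 5-3, 5-4 and 6-1. It was 81.6, 76.3 and 83.4 CPM in vehicle 1-1, 1-3 and 2-1. The vehicle libraries were close together, with an SD of 3.72 CPM around a mean of 80.4 CPM (n = 3), and every p38i and EZH2i library lay above them, while combination 9-1 fell inside the vehicle range. The means were 103 ± 30.4 CPM in combination, 169 ± 35.1 CPM in p38i and 132 ± 20.7 CPM in EZH2i libraries (SD, n = 3 each).

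HIST1H4C encodes histone H4, a core protein of the nucleosome that is made from many gene copies. The combination libraries had 1894, 993 and 1029.8 CPM, in the order given above. The p38i libraries had 1639, 2155 and 3059 CPM, and the EZH2i libraries 1217, 1206 and 1327 CPM. Vehicle libraries had 1063, 767 and 1116 CPM. The 3 EZH2i libraries had a mean of 1250.1 ± 66.8 CPM (SD, n = 3) and were all above the highest vehicle library, while the p38i libraries averaged 2284 ± 719 CPM (SD, n = 3). Combination 8-1 lay inside the p38i range, and combination 9-1 and 9-2 lay inside the vehicle range.

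HIST1H2BD and HIST1H2BK encode variants of H2B, which pairs with H2A in the nucleosome core. HIST1H2BD was at 26.7, 18.3 and 16.6 CPM in combination, 25.6, 20.4 and 29.1 CPM in p38i, 18.3, 17.9 and 21.8 CPM in EZH2i, and 13.7, 10.2 and 14.5 CPM in vehicle libraries. It was the gene among the 6 for which all 9 treated libraries were above all 3 vehicle libraries. The share of all genes with such a separation was not computed. HIST1H2BK was at 293, 229 and 165 CPM in combination, 222, 340.3 and 433 CPM in p38i, 216, 388 and 209.5 CPM in EZH2i, and 171, 163 and 153 CPM in vehicle libraries. Its vehicle libraries were again the closest together, with an SD of 8.94 CPM, against 64.3 CPM in combination, 106 CPM in p38i and 101 CPM in EZH2i libraries (n = 3 each). EZH2i 5-4 stood above the other EZH2i libraries for this gene.

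HIST1H2AC encodes a type of H2A and HIST2H2BE another H2B. Both rested on few reads, 0 to 24 counts per library for HIST1H2AC and 4 to 17 counts for HIST2H2BE. HIST1H2AC was at 7.03, 0.881 and 1.26 CPM in combination, 4.43, 1.93 and 2.45 CPM in p38i, 1.63, 2.24 and 5.24 CPM in EZH2i, and 0.416, 0 and 2.61 CPM in vehicle libraries. The count of 0 in vehicle 1-3 allows a level of up to 0.901 CPM, taken as 3 counts and covering counting error only. HIST2H2BE was at 4.98, 2.64 and 1.57 CPM in combination, 2.39, 1.38 and 1.96 CPM in p38i, 4.07, 2.98 and 2.18 CPM in EZH2i, and 1.67, 3 and 1.9 CPM in vehicle libraries. The groups overlapped for both genes in each comparison.

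**Figure D2:**
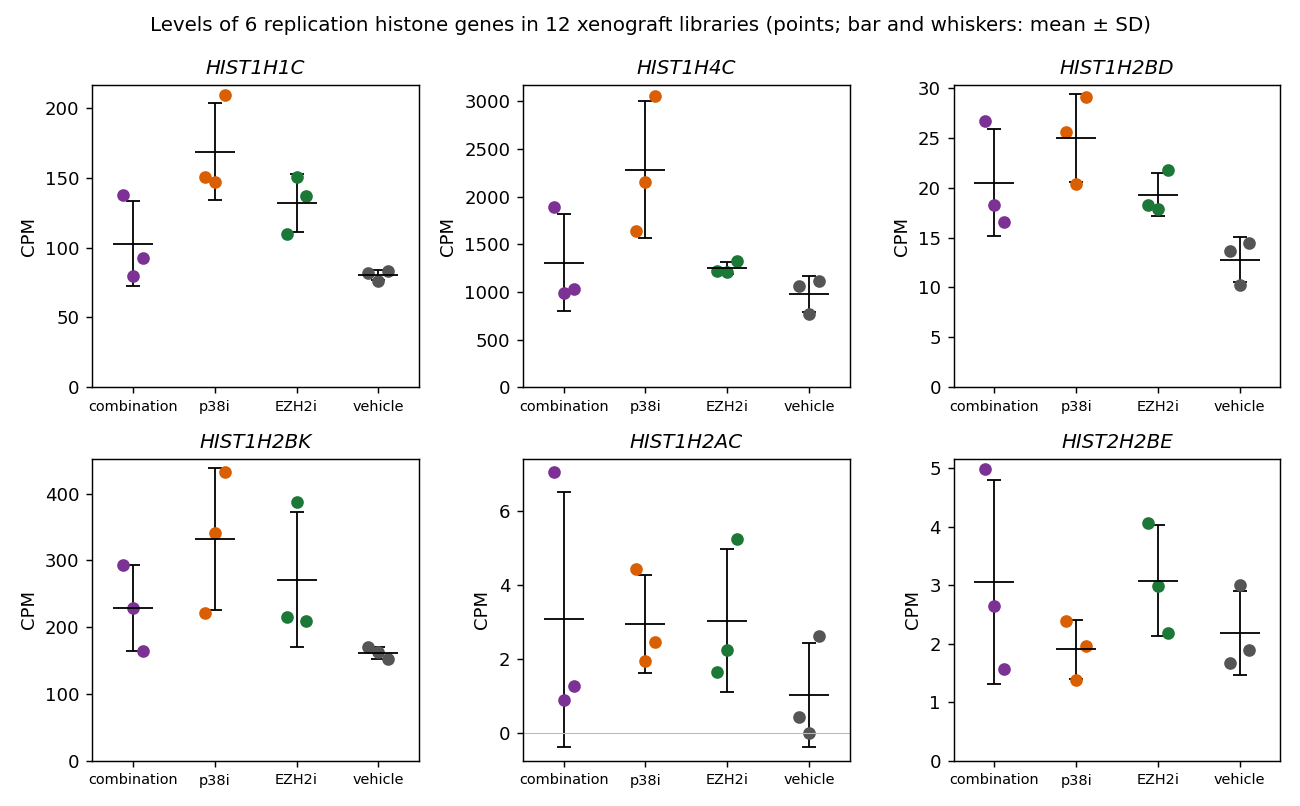
Level of each of the 6 genes in CPM (vertical axis, from 0, a separate scale per gene) in the combination, p38i, EZH2i and vehicle groups; points are libraries, and the bar and whiskers are the mean and SD of 3. For HIST1H1C, HIST1H4C, HIST1H2BD and HIST1H2BK every p38i library lies above every vehicle library, and combination 8-1 is the highest combination library for all 6 genes.

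The combination was compared with vehicle to ask what both inhibitors did together. The 6 genes had log2 fold changes of 0.36 (SE 0.209) for HIST1H1C, 0.41 (SE 0.261) for HIST1H4C, 0.68 (SE 0.244) for HIST1H2BD, 0.50 (SE 0.28) for HIST1H2BK, 1.37 (SE 0.947) for HIST1H2AC and 0.47 (SE 0.504) for HIST2H2BE. None of the 6 passed the threshold, an adjusted p of 0.05 in edgeR's quasi-likelihood test, and 0% of the 12514 genes tested were called higher; 1 of the 6 had an unadjusted p below 0.05, as did 16.3% of all genes in either direction, and DESeq2 called none of the 6. HIST1H2BD was the 1 gene of the 6 whose groups did not overlap, against 10.7% of all genes with groups apart in that direction. One library carried much of these differences. Without combination 8-1 the log2 fold changes were 0.11 for HIST1H1C, 0.05 for HIST1H4C, 0.46 for HIST1H2BD and 0.29 for HIST1H2BK, and HIST1H2AC was at -0.10 and HIST2H2BE at -0.03.

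The p38 inhibitor alone, set against vehicle, gave the highest means of HIST1H1C, HIST1H4C, HIST1H2BD and HIST1H2BK. The log2 fold changes were 1.08 (SE 0.209) for HIST1H1C and 1.22 (SE 0.265) for HIST1H4C, which are ratios of 2.11 and 2.33. Both genes rose past the threshold, and 0.655% of all genes tested did so in this direction. HIST1H2BD had 0.97 (SE 0.242), HIST1H2BK 1.03 (SE 0.281), HIST1H2AC 1.32 (SE 0.953) and HIST2H2BE -0.22 (SE 0.533) on the same scale, none of them called. For 4 of the 6 genes all p38i libraries lay above all vehicle libraries, as they did for 12.3% of all genes. The choice of the 6 genes used this comparison, so these counts are descriptions. Of 6 fibroblast marker genes 5 were tested in the same comparison, 1 with a positive value. PDGFRB, a receptor of fibroblasts and pericytes, fell, with a log2 fold change of -2.03 (SE 0.453) and an adjusted p of 0.0433 in edgeR. Over all genes 1.11% were called lower, and the marker list was also chosen with earlier results known. LUM, a collagen-binding proteoglycan, had -1.32 (SE 0.695). These markers had 25 to 162 and 2 to 14 counts per library. The collagen genes, with 165 to 2483 counts, had 0.63 (SE 0.58) for COL3A1, -0.09 (SE 0.295) for COL1A2 and -0.18 (SE 0.412) for COL1A1. DCN had 0 to 3 counts per library. The summed share of the 6 markers was 0.0281% to 0.0896% of counts in p38i and 0.0436% to 0.0918% in vehicle libraries. The part of such cells in the histone differences was not tested. With col6 left out, HIST1H1C had a log2 fold change of 0.90, HIST1H4C 0.96, HIST1H2BD 0.85 and HIST1H2BK 0.80, and none of the 6 was called; the same loss of both calls followed the removal of p38i 3-3, p38i col5, vehicle 1-1 or vehicle 1-3. Without EZH2i 6-1, which enters through the shared estimate of spread, HIST1H1C alone was called. Leaving out EZH2i 5-4 gave 4 calls among the 6 and leaving out vehicle 2-1 gave 3, while DESeq2 called 4, with HIST1H2BD and HIST1H2BK added. Over all genes these settings called 446, 568 and 632 genes, against 221 in the fit described here.

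The EZH2 inhibitor alone, set against vehicle, left 0 of the 6 genes past the threshold in edgeR, against 0.0879% of all genes called higher; 3 of the 6 had an unadjusted p below 0.05, as did 14.7% of all genes in either direction, and DESeq2 called none of the 6. The log2 fold changes were 0.72 (SE 0.21) for HIST1H1C, 0.35 (SE 0.261) for HIST1H4C, 0.59 (SE 0.248) for HIST1H2BD and 0.75 (SE 0.281) for HIST1H2BK. For these 4 genes each EZH2i library was above each vehicle library, and the share of all genes with groups apart in that direction was 8.32%. The 6 genes were chosen with the results of this comparison known, so these counts too are descriptions. HIST1H2AC had 1.35 (SE 0.973) and HIST2H2BE 0.48 (SE 0.518). EZH2i 5-4 set much of the HIST1H2BK difference, which was 0.39 without it.

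**Figure D3:**
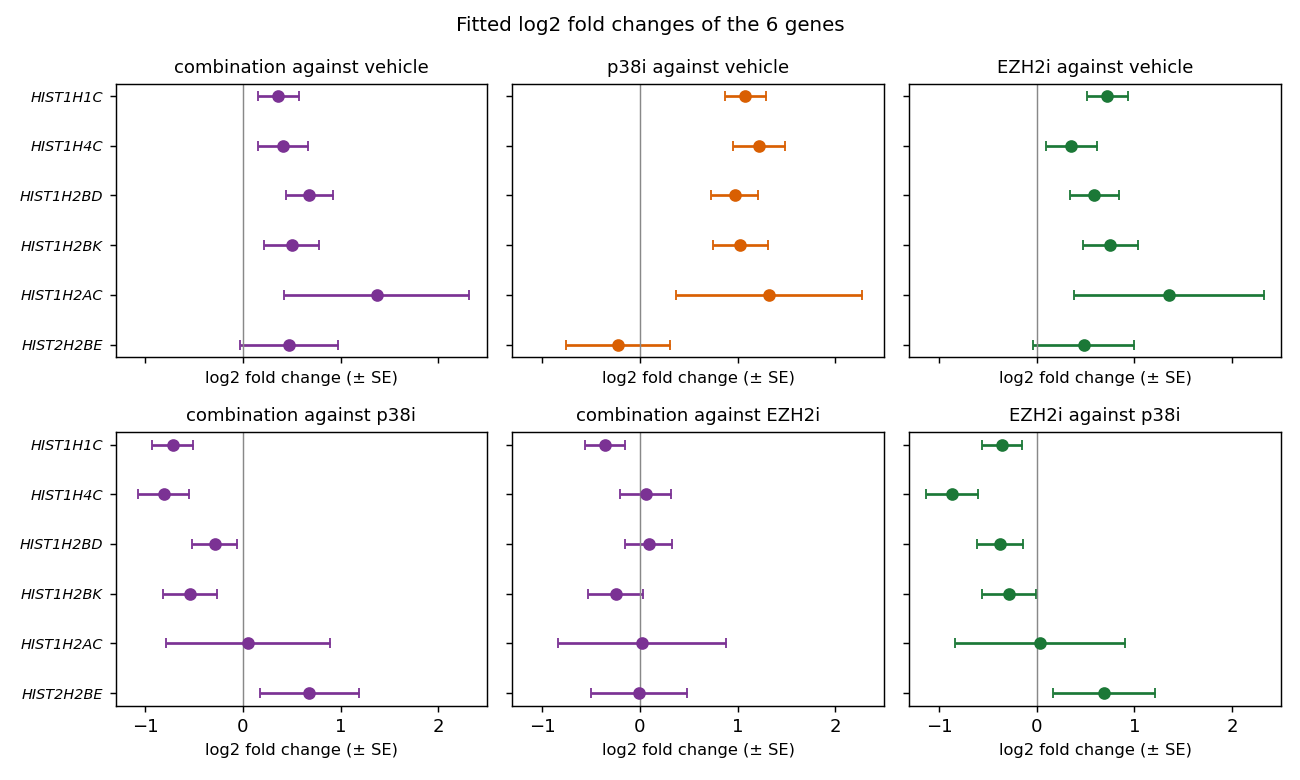
Fitted log2 fold change with its SE (horizontal axis) of the 6 genes (rows) in 6 comparisons, with a vertical line at 0 for equal levels. HIST1H1C and HIST1H4C stand at 1.08 and 1.22 in p38i against vehicle, at 0.36 and 0.41 in the combination against vehicle, and at -0.72 and -0.81 in the combination against p38i.

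Comparisons among the treated groups asked whether levels differed between the combination and each inhibitor alone. The labels state no separate doses for the combination, so equal doses are not known. The 6 genes were chosen with p38i and EZH2i results against vehicle known, from the same p38i and EZH2i libraries. That choice could favour negative differences from p38i, so the differences and p-values of the 6 among treated groups are descriptions. The combination and p38i libraries differed by -0.72 (SE 0.207) in log2 for HIST1H1C, with an adjusted p of 0.575, and by -0.81 (SE 0.262) for HIST1H4C, with an adjusted p of 0.582. HIST1H2BK stood at -0.54 (SE 0.278, adjusted p = 0.67) and HIST1H2BD at -0.29 (SE 0.233, adjusted p = 0.788). HIST1H2AC and HIST2H2BE had values of 0.05 (SE 0.842, adjusted p = 0.989) and 0.68 (SE 0.509, adjusted p = 0.778). HIST1H1C was the 1 gene of the 6 whose combination libraries, at 79.7 to 138 CPM, all lay below the p38i libraries, at 147 to 209.9 CPM; 8.18% of all genes showed this. No gene passed the threshold, 0% of those tested, while 977 genes (7.81%) had an unadjusted p below 0.05, HIST1H1C and HIST1H4C among them. DESeq2 called 7 genes and none of the 6. Leaving out combination 8-1 gave -0.98 for HIST1H1C and -1.18 for HIST1H4C, and leaving out col6 gave -0.53 for both, -0.16 for HIST1H2BD and -0.29 for HIST1H2BK.

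The combination was next set against EZH2i. The log2 differences were -0.36 (SE 0.207) for HIST1H1C, 0.06 (SE 0.261) for HIST1H4C, 0.09 (SE 0.239) for HIST1H2BD, -0.25 (SE 0.278) for HIST1H2BK, 0.02 (SE 0.861) for HIST1H2AC and -0.01 (SE 0.493) for HIST2H2BE, with adjusted p between 0.991 and 0.999. The groups overlapped for all 6 genes. Again 0% of genes passed in edgeR, 391 (3.12%) had an unadjusted p below 0.05 with none of the 6 among them, and DESeq2 called 1 gene, not one of the 6. Without combination 8-1 all 6 differences were negative, at -0.62 for HIST1H1C, -0.30 for HIST1H4C, -0.14 for HIST1H2BD, -0.47 for HIST1H2BK, -1.47 for HIST1H2AC and -0.51 for HIST2H2BE. Without EZH2i 5-4, HIST1H2BK was at 0.11.

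EZH2i against p38i compared the single agents at the doses given. HIST1H4C had the widest gap, -0.87 (SE 0.263, adjusted p = 0.998), with EZH2i libraries at 1206 to 1327 CPM and p38i libraries at 1639 to 3059 CPM; groups lay apart in that direction for 4.01% of all genes. The other differences were -0.36 for HIST1H1C, -0.38 for HIST1H2BD, -0.29 for HIST1H2BK, 0.03 for HIST1H2AC and 0.69 for HIST2H2BE, each with an adjusted p of 0.998. Called genes were again 0%, 426 genes (3.4%) had an unadjusted p below 0.05, with HIST1H4C the 1 of the 6, and DESeq2 called 1 gene and none of the 6. Without col6 the difference was -0.60 for HIST1H4C, -0.17 for HIST1H1C, -0.25 for HIST1H2BD and -0.04 for HIST1H2BK.

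Whether the inhibitors' effects add on the log2 scale was expressed as the combination minus p38i minus EZH2i plus vehicle. A value of 0 means that the differences add. The labels state no separate doses for the combination, so different dosing and non-additivity cannot be told apart. It was -1.43 (SE 0.294) for HIST1H1C, -1.16 (SE 0.37) for HIST1H4C, -0.88 (SE 0.34) for HIST1H2BD, -1.28 (SE 0.395) for HIST1H2BK, -1.30 (SE 1.29) for HIST1H2AC and 0.21 (SE 0.724) for HIST2H2BE. None of the 6 passed the threshold in edgeR, and 0.00799% of all genes were called negative; 4 of the 6 had an unadjusted p below 0.05, as did 13.1% of all genes in either direction, and DESeq2 called 1 of the 6 and 226 genes in all. The choice of genes used this quantity too, and each term shares libraries with the comparisons above. Over the 6 genes the median was -1.22, against -0.01 over all genes tested. A choice made with p38i and EZH2i results known could favour negative values of this quantity. The counts and the median are therefore descriptions. HIST1H1C and HIST1H4C had -1.71 and -1.54 without combination 8-1, and -1.26 and -0.89 without col6.

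The replication histones that were not chosen gave values of the same sign in many cases. Of the 7 that passed the filter, 6 had positive log2 fold changes in the combination against vehicle, 7 in p38i against vehicle and 6 in EZH2i against vehicle, with medians of 1.09, 0.82 and 0.80, against 0.01, 0 and 0.01 over all genes tested. None of the 7 was called in any of these. Apart from HIST1H1E and HIST3H2A they had 0 to 30 counts per library. Combination 8-1 was the highest combination library for all 7. A gene can pass the filter through treated libraries alone, which favours positive values against vehicle. These signs and medians are therefore descriptions. HIST1H1E, the linker histone H1.4, was at 10.8, 5.28 and 7.22 CPM in combination, 12.6, 9.11 and 11 CPM in p38i, 6.1, 8.7 and 6.55 CPM in EZH2i, and 3.33, 6.6 and 8.06 CPM in vehicle libraries. Its p38i libraries lay above its vehicle libraries, as for 12.3% of all genes, with a log2 fold change of 0.82 (SE 0.353). HIST3H2A was at 36.3, 18.1 and 15.4 CPM in combination, 9.2, 25.9 and 26.4 CPM in p38i, 19.9, 24.9 and 19.2 CPM in EZH2i, and 5.41, 14.4 and 12.1 CPM in vehicle libraries. The combination and EZH2i libraries of HIST3H2A were above the vehicle libraries, as for 10.7% and 8.32% of all genes, and p38i 3-3 was not. HIST2H2AC, the RefSeq neighbour of HIST2H2BE, had 4 to 24 counts per library and a value of -0.90 (SE 0.458) in the combination against vehicle. Its combination libraries, at 3.22, 1.76 and 1.26 CPM, lay below its p38i libraries, at 4.43, 6.62 and 4.40 CPM. Groups lay apart in that direction for 8.18% of all genes.

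Replacement histones, which are made outside S phase as well and enter chromatin without replication, were measured for 10 genes. Their median log2 fold change was 0.23 in the combination, 0.34 in p38i and 0.20 in EZH2i, each against vehicle, with 8 of 10 positive in each and none called. In p38i against vehicle they ran from -0.70 (SE 0.26) for H1F0, a linker histone of resting cells, to 1.35 (SE 0.51) for CENPA, the H3 variant of centromeres. H2AFX, the variant phosphorylated at DNA breaks, had 0.91 (SE 0.292). H2AFV and H3F3B, which encode a relative of H2A.Z and the variant H3.3, had 0.52 (SE 0.171) and 0.26 (SE 0.126). The other replacement histones with at least 5 CPM were H2AFZ at 0.42 (SE 0.179), H2AFY at 0.26 (SE 0.168), H1FX at 0.02 (SE 0.239) and H2AFJ at -0.28 (SE 0.186). Libraries of p38i lay above those of vehicle for H2AFX, H2AFV and H3F3B and below them for H1F0. Over all genes the groups lay apart in these directions for 12.3% and 12.5%.

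Genes that make and handle histone messages and proteins had smaller medians. The 21 genes of histone transcription and 3′ end processing had a median log2 fold change of 0.03 in the combination, 0.17 in p38i and 0.08 in EZH2i against vehicle, with 11, 14 and 12 positive and none called. Among them LSM11, a subunit of the U7 particle, had 2.08 (SE 0.684) in p38i against vehicle and CCNE1, which encodes cyclin E1, had 0.69 (SE 0.348), while SYMPK, a scaffold of the cleavage complex, had -0.32 (SE 0.206) and NPAT, the coactivator of histone genes, -0.21 (SE 0.152). Of 20 histone chaperone genes, 14 were positive in p38i against vehicle with a median of 0.17. DAXX, a chaperone of the variant H3.3, rose by 0.78 (SE 0.169, edgeR adjusted p = 0.0367) and was the 1 called. Over all genes 0.655% were called higher there, and the list was chosen with earlier results known. ASF1B, which hands H3 and H4 to other chaperones, had 0.98 (SE 0.326) and HJURP, the chaperone of CENPA, 0.81 (SE 0.223), while ATRX and UBN1 had -0.47 (SE 0.138) and -0.35 (SE 0.191).

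Cell cycle genes were set beside the 6 because replication histone messages are tied to S phase. In the combination, p38i and EZH2i against vehicle the 21 S phase genes had medians of 0.29, 0.44 and 0.25, with 18, 20 and 18 positive. The 20 genes of G2 and mitosis had medians of 0.60, 0.69 and 0.53, with 20 positive in each. By the median log2 CPM of these 20 genes, vehicle 1-1 and 1-3 were the lowest libraries, at 6.17 and 6.4. Vehicle 2-1, at 6.84, lay above p38i 3-3 (6.63), EZH2i 5-3 (6.72) and 6-1 (6.77), and combination 9-1 (6.78). The other treated libraries lay above vehicle 2-1. In p38i against vehicle MCM3, a subunit of the replicative helicase, rose by 0.79 (SE 0.18, edgeR adjusted p = 0.0433), and BUB1, a kinase of the spindle checkpoint, by 1.18 (SE 0.276, edgeR adjusted p = 0.0461). No other gene of the pair of lists was called in these comparisons. Over all genes 0.655% were called higher in p38i against vehicle. The lists were chosen with earlier results known, so these calls are descriptions. Without any 1 p38i library, 2 to 7 genes in all were called in that comparison. The widest S phase values in p38i against vehicle were 1.06 (SE 0.319) for RRM2, a subunit of ribonucleotide reductase, and 1.03 (SE 0.319) for GINS1, a replication fork protein, and the lowest was -0.02 (SE 0.213) for POLA1, a subunit of DNA polymerase alpha. Beside BUB1, the G2 and mitosis genes ran in that comparison from 0.52 (SE 0.229) for KIF11 and 0.53 (SE 0.255) for NUSAP1 to 1.03 (SE 0.283) for CDC20. Of 6 genes of cell cycle inhibitors 2 were positive, none was called and the median was -0.14. CDKN1A, which encodes p21, had -0.34 (SE 0.226) and CDKN1B, which encodes p27, -0.28 (SE 0.168), while CDKN2D and CDKN2C had 0.73 (SE 0.203) and 0.29 (SE 0.215). The part of the cell cycle genes in the histone differences was not tested.

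The levels of the 6 genes were averaged per library as centred log2 CPM, in which 0 is the mean over the 12 libraries. The averages were 0.76, -0.30 and -0.39 in combination 8-1, 9-1 and 9-2, 0.40, 0.19 and 0.63 in p38i 3-3, col5 and col6, 0.06, 0.26 and 0.30 in EZH2i 5-3, 5-4 and 6-1, and -0.62, -1.02 and -0.25 in vehicle 1-1, 1-3 and 2-1. This average gives the sparse HIST1H2AC and HIST2H2BE the same weight as the other genes. By it, combination 8-1 was the highest library, and combination 9-1 and 9-2 lay near vehicle 2-1. HIST1H2AC had the widest spread and so moved the average most. Its log2 CPM ran from -2.74 in vehicle 1-3, at 0 counts, to 2.84 in combination 8-1, against 3.37 to 4.87 for HIST1H2BD. The correlations and the closest genes given below use this average. By summed CPM of the 6 genes p38i col6 was highest, with 3736 CPM, and combination 8-1 had 2364 CPM. For the S phase genes the same measure was 0.25, -0.02 and 0.05 in combination, -0.11, 0.18 and 0.43 in p38i, -0.05, 0.21 and 0 in EZH2i, and -0.64, -0.28 and -0.02 in vehicle libraries. Across the 12 libraries, which share the group structure and differ in depth, Pearson's r between the averages was 0.741 and Spearman's rho 0.657; r was 0.702 without vehicle 1-1 and p38i col6, and 0.544 over the 9 treated libraries. With the genes of G2 and mitosis r was 0.689 over 12 libraries, 0.562 without the same pair and 0.328 over the 9. Other lists had values in the same range. Over 12 libraries and over the 9 treated ones r was 0.663 and 0.763 with the histone chaperones, 0.69 and 0.296 with the replacement histones, and 0.62 and 0.502 with the genes of histone transcription and 3′ end processing. The libraries p38i 3-3 and combination 9-2 show the scatter, with 0.40 for the histone genes and -0.11 for the S phase genes in p38i 3-3, and -0.39 and 0.05 in combination 9-2.

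**Figure D4:**
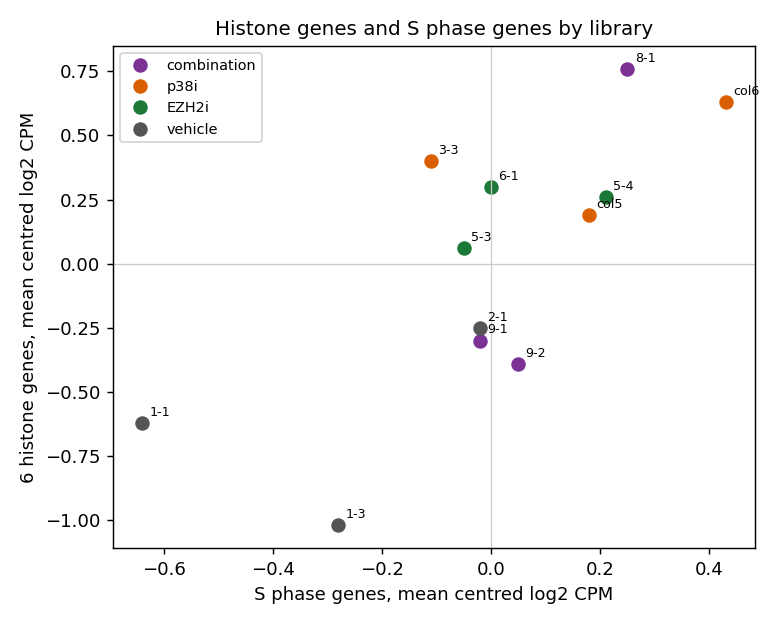
Mean centred log2 CPM of the 6 histone genes (vertical axis) against that of 21 S phase genes (horizontal axis), with 1 labelled point per library coloured by group. Vehicle 1-1 and 1-3 lie at the low end of both measures, and combination 8-1 stands apart from combination 9-1 and 9-2 on the vertical axis.

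The genes varied together to different degrees. Over the 12 libraries Pearson's r of log2 CPM was 0.881 between HIST1H1C and HIST1H4C, 0.854 between HIST1H4C and HIST1H2BD, 0.844 between HIST1H1C and HIST1H2BD and 0.841 between HIST1H1C and HIST1H2BK. Over the 9 treated libraries the same pairs had 0.849, 0.831, 0.74 and 0.739. HIST2H2BE, with 4 to 17 counts, had r between -0.107 and 0.136 with the other 5 genes. Among 10747 genes that are not histone genes and averaged at least 5 CPM, the 8 closest to the averaged level of the 6 were BRCA1 (r = 0.917), SEMA4C (0.884), XRCC4 (0.883), NAV3 (0.854), DENR (0.854), VOPP1 (0.853), FILIP1L (0.849) and UQCC2 (0.849), over 12 libraries, and 5 of the 8 were also among the closest 8 by Spearman's rho. BRCA1, a DNA repair gene, averaged 43.7 CPM in combination, 47.7 CPM in p38i, 46.5 CPM in EZH2i and 26.9 CPM in vehicle libraries. XRCC4, a gene of DNA end joining, averaged 19.7 CPM in combination, 22.6 CPM in p38i, 20.2 CPM in EZH2i and 17.5 CPM in vehicle libraries. The 8 genes were picked as the most alike of many, so their r values describe these libraries only.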

How the data were processed

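RNA from xenograft tumours was sequenced, 3 libraries in each of 4 groups. Per the submitters' processing notes, Trim Galore 0.5.0, STAR 2.6.0 and the build hg19 were used; the counting program, its annotation, its use of strand and any removal of mouse reads are not given in the sources used here. The labels' protocols name both a SMARTer mRNA kit and QuantSeq. The authors deposited raw counts per gene symbol, and 3 lines without a gene name, with 0 counts, were dropped. Libraries were tied to samples by the column number in the labels, which give column 5 to both remaining p38i samples and column 6 to none; columns 5 and 6 were taken as p38i, the second by elimination. The labels do not say that libraries of a group came from separate animals, so p-values measure the spread between these samples. No pair of libraries agreed within sampling noise (lowest chi-square per degree of freedom 4.33).

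Genes were filtered with filterByExpr (12514 kept), TMM-scaled and fitted over all 12 libraries with edgeR 4.0.16 (R 4.3.3; quasi-likelihood F tests, robust option, Benjamini-Hochberg adjustment over all genes, threshold 0.05); the biological coefficient of variation was 0.219. The code was tested on simulated data. SE values come from the F statistics. Log2 CPM used a prior count of 0.5. Alternatives were DESeq2 1.42.0, other scalings, no filter, no robust option and each library left out in turn. The 6 genes and all lists were chosen with earlier results of these data known. Therefore no adjusted p of the 6 genes is given for comparisons with vehicle or for additivity. Their p-values among treated groups, which share libraries with that choice, are descriptions. Named genes were the 6, other histone genes by range and from a mean of 5 CPM by name, of each other list the genes called and the 2 largest and 2 smallest values in p38i against vehicle where shown, and the 8 closest genes; HIST2H2AC was singled out after its values were seen, and 1 gene the rule names is not reported here. RefSeq sequences (GRCh38.p14) and GENCODE transcripts were used for letters only.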

Additional observations from a re-analysis of the deposited data

How the results depend on the processing

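Of the log2 fold changes of the 6 genes over all comparisons and alternatives, 671 kept direction and side of the threshold, 10 gained and 11 lost a call, and the others changed sign. Of those, 21 were values within 1 SE of 0 in the fit described here, and 1 was not: HIST1H2AC in the combination against vehicle, at -0.10 without combination 8-1, and up to 3.82 without vehicle 2-1. The cause was not tested. Scaling by library totals or size factors shifted the median of all genes by at most 0.06 (log2). In p38i against vehicle, 2 of the 6 were called in edgeR, 3 with library totals or no filter, 4 with DESeq2 and 0 to 4 with a library left out.

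The number of genes called in p38i against vehicle was 221, with 632 in DESeq2 and 2 to 568 with a library left out. For EZH2i against vehicle it was 27, with 114 without a filter, 232 in DESeq2 and 2 to 125 with a library left out. For the combination against vehicle it was 1, with 3 under library totals, 42 without a filter, 167 in DESeq2 and 0 to 229 with a library left out. For the combination against p38i it was 0, with 1 without a filter and 7 in DESeq2; for the combination against EZH2i, 0 and 1 in DESeq2; and for EZH2i against p38i, 0, with 1 without a filter and 1 in DESeq2. In p38i against vehicle, 2 to 7 genes were called without a p38i library, 32 without vehicle 1-1, 3 without vehicle 1-3 and 568 without vehicle 2-1. The rank by Spearman's rho kept 5 of the 8 closest genes. HIST1H2AC and HIST2H2BE had at most 24 and 17 counts per library, which limits every statement about them. No paired analysis was possible because the groups share no replicate numbers in the labels.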
